A study of Mus musculus with 6 samples.

Results

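Glycogen is the glucose store of the cell, and 9 genes of its synthesis, breakdown and control are described here out of the 21240 genes counted in cells given TGFβ. They are the primer protein gene Gyg, the synthase gene Gys1, the branching enzyme gene Gbe1, the phosphorylase genes Pygb and Pygl, and 4 genes for subunits that bring protein phosphatase 1 to glycogen, Ppp1r3b, Ppp1r3c, Ppp1r3d and Ppp1r3f. The family was chosen by the log2FC of Ppp1r3c at 2 h of TGFβ, which was the lowest of the 11080 genes tested. That value was -4.65, and the next lowest were -4.27 for 8430408G22Rik and -3.45 for Clec2d. The 2 latter genes are named for their rank, after the values were seen. All 9 names match what the genes are known to encode, and 7 of the 9 were counted highly enough to be tested.

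The study followed the transcriptome of NMuMG cells, an epithelial line from normal mouse mammary gland, after TGFβ. RNA was sequenced as stranded total RNA from 6 libraries, 2 labeled as biological replicates in each of 3 groups, and each library is named below by its group and replicate number. Total counts were 16251758 and 14705886 with vehicle, 20578661 and 19904400 at 2 h, and 23786993 and 20142492 at 12 h (replicates 1 and 2). All cells grew in medium with serum and insulin and were then kept for 6 h without either before treatment. The vehicle group received the carrier, given as HCl with BSA in the protocol and as Tris-HCl with BSA in the sample label, for 2 h. The 2 h and 12 h groups received TGFβ1 at 5 ng/ml for those times. The cells are a single line, and no genetic change is named for any group. Vehicle was sampled at 2 h alone, so the effect of 12 h of TGFβ1 and that of a longer time without serum and insulin cannot be told apart in the comparisons of 12 h with vehicle or with 2 h. With 2 libraries a group, p-values measure the spread between these libraries.

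The label of an epithelial line was checked on marker genes. Of 5 epithelial markers, Cdh1, Krt8, Krt18 and Krt19 were tested, and their sum with Epcam was 5777 and 4958 CPM in the vehicle libraries, 6436 and 6471 at 2 h, and 10314 and 10363 CPM at 12 h, with Krt18 the most abundant. The sum hides opposite directions, since at 12 h against vehicle Krt8 and Krt18 had a log2FC of 1.63 and 1.53 and Krt19 of -1.95, all called, while Cdh1 had -0.07 and was not called. Krt19 had 1845 and 1664 CPM with vehicle, then 1661 and 1789 at 2 h and 420 and 489 at 12 h. Epcam was close to absent, with 2 to 16 counts in each library.

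Markers of other cell types were low except for those of hepatocytes. The 5 leukocyte markers summed to 4.35 to 6.88 CPM per library, with Cd68 the most abundant and Cd3e at 0. None of the 4 endothelial markers was tested. They summed to 0.176 and 0.255 CPM for vehicle, then 0.354 and 0.353 at 2 h and 1.74 and 1.95 at 12 h. The higher sum at 12 h rests on Cdh5, with 0.0588 and 0.127 CPM with vehicle and 1.70 and 1.85 at 12 h. Pecam1, Kdr and Tek had 0 to 2 counts in each library. The 4 adipocyte markers summed to 0.103 to 0.303 CPM, with Cidec the most abundant and Lep at 0. The 5 skeletal muscle markers, with Acta1 the most abundant and Myh1 and Myh4 at 0, summed to 0.647 and 2.42 CPM for vehicle, then 0.809 and 4.03 at 2 h and 3.31 and 7.13 at 12 h, and 2 h and 12 h overlapped. The 5 fibroblast markers summed to 4.00 and 3.50 CPM in the vehicle libraries, 8.39 and 8.77 at 2 h, and 13.8 and 13.3 CPM at 12 h, with Thy1 at 0. That difference is carried by Col1a1, with 0.647 and 1.27 CPM with vehicle, then 4.75 and 6.80 at 2 h and 11.0 and 10.8 at 12 h, while Pdgfra, the most abundant of them with vehicle, had 1.86 to 3.03 CPM in each library and Dcn 0 to 0.588 CPM. The 4 hepatocyte markers, with Alb the most abundant and none at 0, summed to 228.6 and 85.0 CPM in the vehicle libraries, 222.9 and 76.0 at 2 h, and 62.7 and 23.1 CPM at 12 h. The sum of the hepatocyte markers was thus 2.69, 2.93 and 2.72 times as high in replicate 1 as in replicate 2 of the vehicle, 2 h and 12 h groups, and lower in both libraries at 12 h than in any other. At 12 h against vehicle Alb, Apoa1 and Ttr had a log2FC of -2.21, -2.08 and -1.09 and Serpina1a of 0.10, and none of the 4 was called. What part this difference has in the results below was not tested.

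Glycogen grows from a glycogenin primer when glycogen synthase adds glucose from UDP-glucose and the branching enzyme moves short chains to make branch points. Phosphorylase takes glucose off again and is switched on by phosphorylase kinase. Targeting subunits of protein phosphatase 1 bind glycogen and carry the phosphatase to synthase and phosphorylase, where removing phosphate favors synthesis over breakdown.

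Levels were compared between genes as CPM (counts scaled by library total and TMM factor) divided by the kilobases of exon that GENCODE annotates on the mm9 build. In the vehicle libraries the order was Pygb with 30.9 ± 1.44 CPM per kb (SD, n = 2), Gys1 with 12.7 ± 1.52, Gyg with 10.0 ± 1.31, Gbe1 with 4.94 ± 0.322, Ppp1r3c with 3.09 ± 1.16, Ppp1r3b with 1.2 ± 0.0765 and Ppp1r3f with 0.390 ± 0.0191 CPM per kb. No 2 neighbors among these 7 had overlapping libraries, while Ppp1r3d and Pygl had 0 counts in both vehicle libraries. Ppp1r3c was therefore the most abundant of the targeting subunits in the vehicle libraries. Its places with vehicle and at 2 h are a description only, because its fall between these groups chose the family. At 2 h Ppp1r3c stood at 0.121 ± 0.0922 CPM per kb, below Ppp1r3b with 0.858 ± 0.299 and Ppp1r3f with 0.435 ± 0.117 CPM per kb. Only the libraries of Ppp1r3c and those of Pygl overlapped. At 12 h the levels of the targeting subunits per kb were 0.855 ± 0.103 for Ppp1r3f, 0.686 ± 0.245 for Ppp1r3b and 0.00801 ± 0.0113 for Ppp1r3c, with Ppp1r3f and Ppp1r3b overlapping. Pygb, Gys1, Gyg and Gbe1 kept the first 4 places in this order at both times, with no overlap between neighbors. The length used for Ppp1r3f is uncertain, because 2957 of its 8465 annotated exon bases also lie in exons of Ccdc22 on the same strand. Over the other 5508 bases its level would be 0.599 CPM per kb with vehicle, 0.669 at 2 h and 1.31 CPM per kb at 12 h. The overlaps with Ppp1r3b given above were taken with the full length and may differ with the shorter one.

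After 12 h of TGFβ1, Gbe1, Pygb and Gyg were lower and Ppp1r3f higher than with vehicle, and Ppp1r3c had almost no counts. Gys1 did not pass the test, and Ppp1r3b passed it only in a fit with a block by replicate number. Genes were called at an adjusted p under 0.05, where p came from the quasi-likelihood test of edgeR and was adjusted over the 11080 genes tested as Benjamini and Hochberg describe. Of the 7 genes tested, 4 were called lower at 12 h than with vehicle, beside 21.5% of all genes tested, and 1 was called higher, beside 21.8%. Among the 4 is Ppp1r3c, whose call carries no weight, because its fall against the same vehicle libraries chose the family. Without it, 3 of 6 were called lower and 1 higher, with a median log2FC of -0.67, and the median over all genes tested was 0.02. Between 2 h and 12 h, 2 of the 7 were called lower (18.9% of all genes tested) and 1 higher (15.2%), with a median log2FC of -0.43 beside 0.01 for all. Without Ppp1r3c, which was not called there, the median of the other 6 was -0.37. Against vehicle at 2 h, the comparison that drew attention to the family, 1 was called lower (5.25% of all genes tested) and 0 higher (9.91%), and nothing is read from that count. The 12 h comparisons share their vehicle or 2 h libraries with it. With total counts in place of TMM factors the median log2FC of all genes tested was -0.12 at 2 h and -0.11 at 12 h, 854 genes were called higher and 974 lower at 2 h against 1098 and 582 with TMM factors, and 1831 higher and 3045 lower at 12 h against 2414 and 2385. The genes of the family called with TMM factors kept their direction and their call under that scaling.

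**Figure D1:**
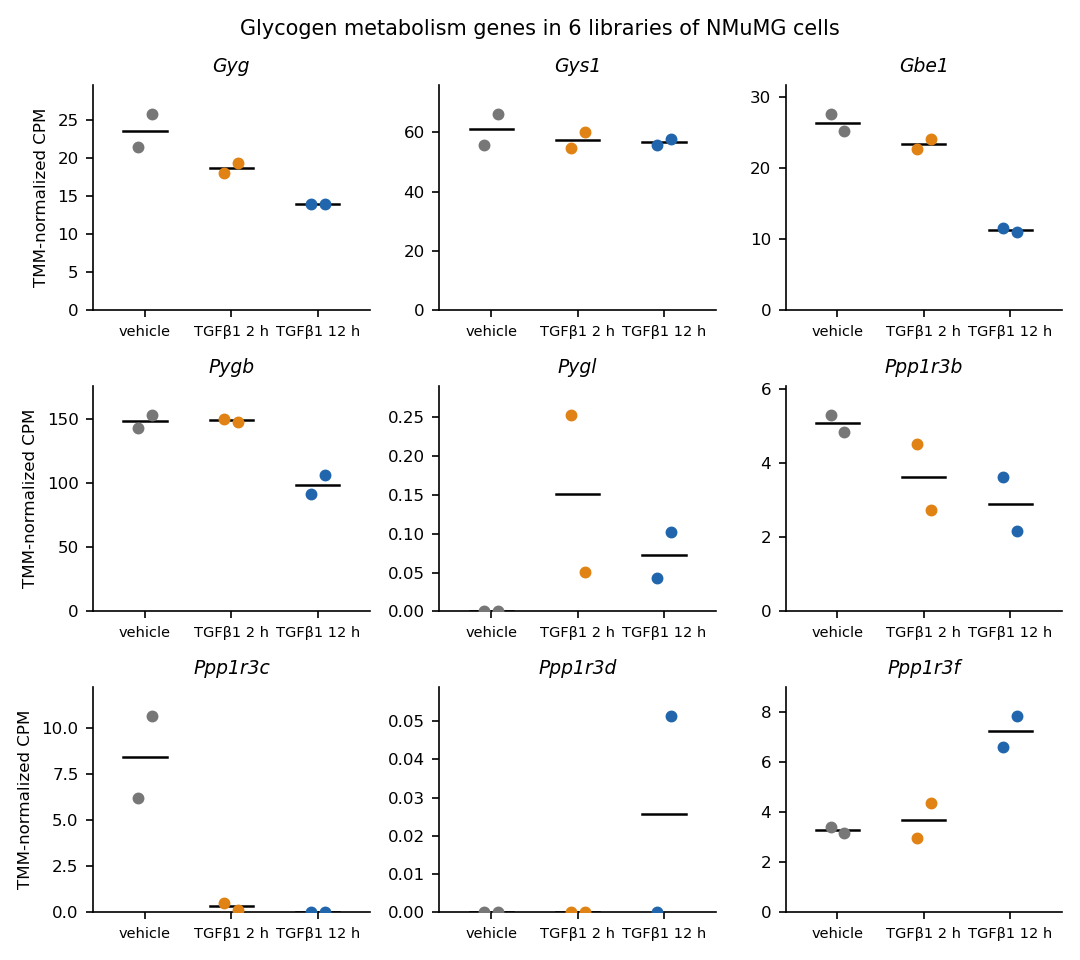
TMM-normalized CPM (linear vertical axes from 0, a scale for each gene) of the 9 glycogen metabolism genes in the vehicle, TGFβ1 2 h and TGFβ1 12 h groups. Points are the 2 libraries of a group and bars their mean. Both 12 h libraries lie below both vehicle libraries for Gyg, Gbe1, Pygb, Ppp1r3b and Ppp1r3c and above them for Ppp1r3f, while Pygl and Ppp1r3d stay at 0 to 0.253 CPM.

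Of the genes of synthesis, Gyg (Entrez 27357), which encodes the glycogenin that starts each particle, had 21.4 and 25.8 CPM in the vehicle libraries, 18.1 and 19.4 at 2 h, and 14.0 and 13.9 CPM at 12 h (replicates 1 and 2). The 3 groups did not overlap, with vehicle highest and 12 h lowest. Its log2FC at 12 h against vehicle was -0.76 (SE 0.148, edgeR adjusted p = 0.00666), and the adjusted p was 0.0502 when replicate 2 of the 12 h group was left out (log2FC -0.77, range over the alternatives 0.000427 in DESeq2 to 0.0502 in edgeR). Between 2 h and 12 h the log2FC was -0.43 (SE 0.147, edgeR adjusted p = 0.0658). Gbe1 (Entrez 74185), the branching enzyme, had 27.6 and 25.2 CPM in the vehicle libraries, 22.7 and 24.1 at 2 h, and 11.7 and 11.1 CPM at 12 h. Both 12 h libraries were below the other 4, and the vehicle and 2 h libraries lay close together without overlap. The log2FC of Gbe1 was -1.22 at 12 h against vehicle (SE 0.133, edgeR adjusted p = 0.000619) and -1.04 against 2 h (SE 0.132, edgeR adjusted p = 0.00194). In a bulk sample, fewer cells with an mRNA and less of it per cell cannot be told apart.

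Gys1 (Entrez 14936), the synthase of muscle and most other tissues, had 55.8 and 66.1 CPM in the vehicle libraries, 54.6 and 60.0 at 2 h, and 55.6 and 57.7 CPM at 12 h. All 3 groups overlapped. Its log2FC was -0.09 at 2 h, and -0.10 at 12 h against vehicle (SE 0.121, edgeR adjusted p = 0.520). A shift of that size is smaller than the spread of the vehicle libraries, 60.9 ± 7.30 CPM (SD, n = 2). The fall of Gbe1 at 12 h thus stood beside a synthase whose groups overlapped, and the difference between both genes was not tested.

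Of the phosphorylases, Pygb (Entrez 110078), the brain form that many cell types use, was the most abundant gene of the family. It had 143.6 and 153.4 CPM in the vehicle libraries, 150.6 and 147.8 at 2 h, and 91.6 and 106.3 CPM at 12 h. Vehicle and 2 h overlapped, and both 12 h libraries were lower than the other 4. The log2FC of Pygb was -0.59 at 12 h against vehicle (SE 0.111, edgeR adjusted p = 0.00584) and -0.59 against 2 h (SE 0.111, edgeR adjusted p = 0.00789), and the adjusted p of the latter was 0.0688 without replicate 1 of the 12 h group (log2FC -0.50, range over the alternatives 5.42e-05 in DESeq2 to 0.0688 in edgeR). Pygl (Entrez 110095), the liver form, had 0 and 0 counts with vehicle, 5 and 1 at 2 h, and 1 and 2 at 12 h. No count of Pygl passed the filter for testing, and a count of 0 allows up to 0.176 and 0.191 CPM in the vehicle libraries, so no fold is given.

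Among the targeting subunits, Ppp1r3c (Entrez 53412), also called protein targeting to glycogen, had 105 and 167 counts with vehicle, 10 and 3 at 2 h, and 1 and 0 at 12 h. On the scale of CPM these are 6.18 and 10.6 with vehicle, 0.506 and 0.151 at 2 h, and 0.0435 and 0 at 12 h. Both vehicle libraries were far above the other 4, and the counts at 2 h and 12 h were few, without overlap. Replicate 2 was the higher library with vehicle and the lower one at both times of TGFβ1. At 2 h the fitted log2FC was -4.65, which is the value that drew attention to the family and is given without a test. The 12 h libraries held 1 count together against 272 with vehicle, a ratio of 353 (exact 95% interval 62.8 to 13997.5 for counting error), and against 13 counts at 2 h the ratio was 13.9 (2.09 to 592), both given as a description of the counts. The fitted log2FC at 12 h against vehicle, -8.13, is likewise given without a test and depends on the prior count that the fit adds. It was -10.3 without replicate 1 and -7.40 without replicate 2 of 12 h, and the value at 2 h was -5.75 without replicate 1 and -4.03 without replicate 2 of 2 h. Ppp1r3c passed the filter on low counts only through the vehicle libraries, so a fall from vehicle was largely settled by the choice of gene and filter, and without either vehicle library, or with at least 10 counts asked of each library, it would be filtered out. Between 2 h and 12 h its fitted log2FC was -3.48, and it was not called. DESeq2, a fit with no filter and a block by replicate number did call it (log2FC -3.80, -3.48 and -3.47). These calls rest on the same few counts and carry no weight, because the 2 h libraries took part in choosing the family.

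Ppp1r3b (Entrez 244416), the subunit known best from liver, had 5.29 and 4.84 CPM in the vehicle libraries, 4.5 and 2.72 at 2 h, and 3.61 and 2.15 CPM at 12 h. The treated libraries were all below the vehicle libraries, but those of 2 h and 12 h overlapped. The log2FC of -0.80 at 12 h against vehicle did not pass the test (SE 0.352, edgeR adjusted p = 0.109), and that against 2 h was -0.32 (SE 0.353). Of 14 alternatives, only a block by replicate number called Ppp1r3b at 12 h against vehicle (log2FC -0.83, edgeR adjusted p = 0.0148). Ppp1r3f (Entrez 54646), a subunit anchored in membranes, had 3.41 and 3.18 CPM in the vehicle libraries, 2.98 and 4.39 at 2 h, and 6.62 and 7.85 CPM at 12 h. Both 12 h libraries were above the other 4, and vehicle and 2 h overlapped. Ppp1r3f rose at 12 h by a log2FC of 1.13 against vehicle (SE 0.258, edgeR adjusted p = 0.0125) and 0.97 against 2 h (SE 0.253, edgeR adjusted p = 0.0261). The call against vehicle was lost without replicate 1 or replicate 2 of vehicle (log2FC 1.18 and 1.08) or replicate 2 of 12 h (0.99), and its edgeR adjusted p ran from 0.00190 to 0.0853 over the alternatives. The call against 2 h was lost without replicate 1 or replicate 2 of 12 h (1.08 and 0.84) or replicate 1 of 2 h (0.72), with an edgeR adjusted p from 0.00414 to 0.149 over the alternatives. Ppp1r3d (Entrez 228966) had 0 counts in 5 libraries and 1 count in replicate 2 of 12 h, which at this depth cannot show a difference.

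The rest of the pathway was followed through 46 other genes listed by their role, of which 33 were tested. At 12 h against vehicle 8 were called lower and 6 higher, against 21.5% and 21.8% of all genes tested, and the median log2FC of the 33 was -0.07. Between 2 h and 12 h, 7 were called lower and 3 higher, against 18.9% and 15.2% of all genes tested, with a median of -0.10. At 2 h against vehicle 0 were called lower and 3 higher, against 5.25% and 9.91%, with a median of -0.04. These 3 were Hk2, Slc2a1 and Akt1, and Prkaa2 lay just outside, with a log2FC of -0.74 (SE 0.199, edgeR adjusted p = 0.0534).

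**Figure D2:**
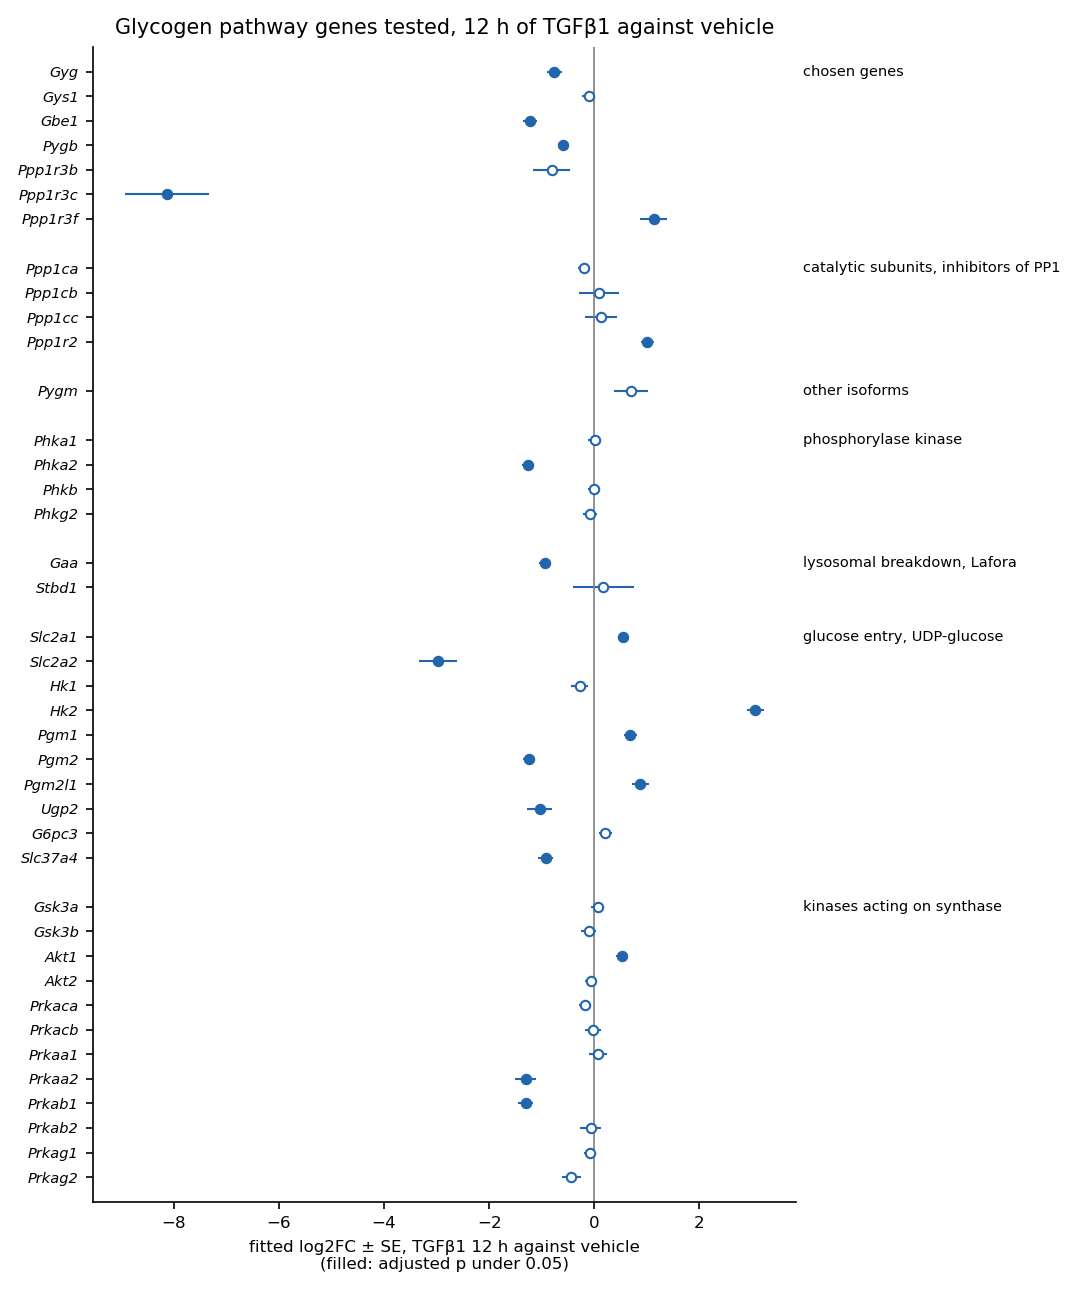
Fitted log2FC ± SE (horizontal axis) of the 7 tested glycogen metabolism genes and of 33 tested genes of the wider pathway, grouped by role, at 12 h of TGFβ1 against vehicle. Filled points were called at an adjusted p under 0.05. Hk2 lies at 3.07, Slc2a2 at -2.97 and Ppp1r3c at -8.13, a fitted value that depends on the prior count. The filled point of Ppp1r3c carries no weight, because its fall against the same vehicle libraries chose the family.

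Among the genes of glucose entry that rose was Hk2 (Entrez 15277), a hexokinase that traps glucose in the cell as glucose 6-phosphate. It had 18.5 and 20.1 CPM in the vehicle libraries, 183.8 and 142.4 at 2 h, and 167.6 and 156.4 CPM at 12 h. All 4 treated libraries were far above both vehicle libraries, and the treated groups overlapped. Hk2 rose by a log2FC of 3.08 at 2 h (SE 0.156, edgeR adjusted p = 0.000200) and 3.07 at 12 h (SE 0.156, edgeR adjusted p = 4.95e-05). Slc2a1 (Entrez 20525), the glucose transporter GLUT1, had 49.9 and 47.8 CPM in the vehicle libraries, 75.6 and 78.0 at 2 h, and 71.4 and 71.8 CPM at 12 h. It was higher in 4 of 4 treated libraries, by a log2FC of 0.65 at 2 h (SE 0.0936, edgeR adjusted p = 0.00603) and 0.55 at 12 h (SE 0.0935, edgeR adjusted p = 0.00380), and at 2 h the adjusted p was 0.0582 without replicate 2 of vehicle (range over the alternatives 4.48e-06 in DESeq2 to 0.0582 in edgeR). Hk1 had a log2FC of -0.27 at 12 h against vehicle (edgeR adjusted p = 0.210) and -0.53 against 2 h (edgeR adjusted p = 0.0433). The latter call was lost without replicate 1 or replicate 2 of 12 h (-0.47 and -0.60) or replicate 2 of 2 h (-0.38), with an edgeR adjusted p from 0.00187 to 0.209 over the alternatives.

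Slc2a2 (Entrez 20526), the glucose transporter GLUT2 of liver and other tissues, had 5.12 and 4.14 CPM in the vehicle libraries, 3.59 and 2.42 at 2 h, and 0.697 and 0.462 CPM at 12 h. The 3 groups did not overlap, and the 12 h libraries were lowest. Its log2FC at 12 h was -2.97 against vehicle (SE 0.362, edgeR adjusted p = 0.000975) and -2.35 against 2 h (SE 0.365, edgeR adjusted p = 0.00404). With at least 10 counts asked of each library Slc2a2 would be filtered out, since replicate 2 of 12 h had 9 counts. The summed hepatocyte markers were 62.7 and 23.1 CPM at 12 h, and the part of such RNA in the fall of Slc2a2 was not tested.

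Phosphoglucomutases turn glucose 6-phosphate into glucose 1-phosphate, and Ugp2 makes UDP-glucose from it. The gene that the count table names Pgm2 (Entrez 72157, named Pgm1 in RefSeq today) had 104.7 and 95.1 CPM in the vehicle libraries, 91.7 and 90.7 at 2 h, and 40.7 and 43.5 CPM at 12 h. Both 12 h libraries were lower than the other 4, with a log2FC of -1.25 against vehicle (SE 0.103, edgeR adjusted p = 0.000217). The gene listed as Pgm1 (Entrez 66681, now Pgm2 in RefSeq) rose instead, by a log2FC of 0.69 at 12 h (SE 0.128, edgeR adjusted p = 0.00548), as did Pgm2l1 by 0.88 (SE 0.168, edgeR adjusted p = 0.00611), whose adjusted p was 0.0601 without replicate 1 of 12 h (log2FC 0.72, range over the alternatives 0.000196 in DESeq2 to 0.0601 in edgeR). Ugp2 had 213.5 and 170.8 CPM in the vehicle libraries, 164.9 and 99.2 at 2 h, and 99.7 and 87.1 CPM at 12 h. Its 2 libraries at 2 h were wide apart and overlapped those of 12 h. Ugp2 fell at 12 h by 1.04 on the log2 scale (SE 0.245, edgeR adjusted p = 0.0142), and the call was lost without replicate 1 of vehicle (log2FC -0.87) or replicate 1 or replicate 2 of 12 h (-1.15 and -0.96). Its edgeR adjusted p ran from 0.000130 to 0.110 over the alternatives. Slc37a4, which carries glucose 6-phosphate into the endoplasmic reticulum, had a log2FC of -0.92 at 12 h (SE 0.143, edgeR adjusted p = 0.00268). G6pc, the glucose 6-phosphatase of liver, had 1 count in each 12 h library and 0 in the others.

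On the side of breakdown, Phka2, a regulatory subunit of phosphorylase kinase, had 112.9 and 109.3 CPM in the vehicle libraries, 95.9 and 103.3 at 2 h, and 42.7 and 49.7 CPM at 12 h. The 12 h libraries were lowest, with a log2FC of -1.27 against vehicle (SE 0.114, edgeR adjusted p = 0.000296), while the other 3 tested subunits of the kinase, Phka1, Phkb and Phkg2, were not called and had a log2FC of 0.01, -0.01 and -0.08. Gaa, the lysosomal enzyme that breaks glycogen down, had 220.4 and 207.4 CPM in the vehicle libraries, 268.3 and 232.3 at 2 h, and 109.4 and 114.3 CPM at 12 h. Its 2 h libraries were highest and its 12 h libraries lowest, and the log2FC at 12 h was -0.94 against vehicle (SE 0.111, edgeR adjusted p = 0.000881) and -1.16 against 2 h (SE 0.112, edgeR adjusted p = 0.000792). Pygm, the muscle phosphorylase, had 3.41 and 2.55 CPM in the vehicle libraries, 2.02 and 1.61 at 2 h, and 3.74 and 5.95 CPM at 12 h. It was highest at 12 h and lowest at 2 h, with a log2FC of 1.41 between them (SE 0.329, edgeR adjusted p = 0.0179), and the call was lost without replicate 2 of 12 h (log2FC 1.03) or replicate 2 of 2 h (1.25), with an adjusted p from 0.00465 to 0.117 over the alternatives. Against vehicle Pygm had a log2FC of 0.69 at 12 h and was not called (edgeR adjusted p = 0.125). Stbd1, which binds glycogen and brings it to the lysosome, had 0.882 and 2.36 CPM with vehicle, then 2.53 and 5.39 at 2 h and 1.44 and 2.21 at 12 h. Its 2 h libraries were above the other 4, but it was not called, with a log2FC of 1.30 at 2 h, 0.17 at 12 h and -1.13 between them. Epm2a and Nhlrc1, the Lafora genes, had 0 to 2 counts in each library.

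The phosphatase that the targeting subunits carry was followed by the RNA of its catalytic subunit genes, which was counted in all 6 libraries. Ppp1ca, its most abundant catalytic subunit gene, had 596.5 and 639.0 CPM in the vehicle libraries, 593.6 and 686.0 at 2 h, and 520.5 and 562.1 CPM at 12 h, with vehicle and 2 h overlapping and 12 h lower. Its log2FC at 12 h was -0.19 and did not pass the test (SE 0.116, edgeR adjusted p = 0.229). Ppp1cb was higher in replicate 1 than in replicate 2 of each group, 244.2 against 213.9 CPM with vehicle, 283.1 against 136.8 CPM at 2 h and 312.1 against 175.8 CPM at 12 h, and was not called. The inhibitor gene Ppp1r2 had 20.4 and 21.2 CPM in the vehicle libraries, 26.5 and 23.6 at 2 h, and 43.9 and 39.7 CPM at 12 h. It rose at 12 h by a log2FC of 1.0 (SE 0.126, edgeR adjusted p = 0.00109), with both 12 h libraries above the other 4. Of the 3 other targeting subunits, Ppp1r3a and Ppp1r3g had 0 counts in all 6 libraries and Ppp1r3e had 1 to 16 counts, too few for testing.

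Of the 12 listed genes for kinases that act on glycogen synthase, all were tested, and at 12 h against vehicle 1 was called higher and 2 lower, against 21.8% and 21.5% of all genes tested. Akt1 had 164.4 and 169.7 CPM in the vehicle libraries, 212.4 and 242.5 at 2 h, and 228.8 and 251.9 CPM at 12 h. All treated libraries were above vehicle, with a log2FC of 0.45 at 2 h (SE 0.111, edgeR adjusted p = 0.0422) and 0.52 at 12 h (SE 0.112, edgeR adjusted p = 0.00950). The call of Akt1 at 2 h was fragile, since it was lost without any 1 of 5 libraries (log2FC 0.35 to 0.47), with total counts (0.34) and in a fit of the 2 groups alone (0.44), with an adjusted p from 0.00641 in DESeq2 to 0.216 in edgeR over the alternatives. At 12 h it was lost without replicate 2 of 12 h (log2FC 0.44) or replicate 1 of vehicle (0.50), with an adjusted p from 0.000259 in DESeq2 to 0.0770 in edgeR. Of the AMP-activated kinase, 2 of 6 subunit genes were called, both lower, and Prkaa1, Prkab2, Prkag1 and Prkag2 were not, with a log2FC of 0.08, -0.07, -0.09 and -0.44. Prkag2 (edgeR adjusted p = 0.0943) was called at 12 h against vehicle with total counts and with a block by replicate number. Prkab1, the beta 1 subunit, had 120.7 and 93.7 CPM in the vehicle libraries, 96.4 and 88.0 at 2 h, and 42.1 and 44.6 CPM at 12 h, and Prkaa2, its alpha 2 subunit, had 10.6 and 12.7, 6.83 and 7.16, and 5.22 and 4.21 CPM. In both genes the 12 h libraries were the lowest, and the log2FC against vehicle was -1.31 (SE 0.144, edgeR adjusted p = 0.000640) for Prkab1 and -1.30 (SE 0.203, edgeR adjusted p = 0.00270) for Prkaa2. Prkag1 was the most abundant of the kinase genes, with 96.4 CPM per kb in vehicle. Gsk3a and Gsk3b were not called, and their log2FC at 12 h was 0.07 and -0.10.

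Positions of the 9 genes on mm9 were compared with those of the counted genes beside them, by transcription start. The 9 genes lie on 8 chromosomes, and Pygb (chr2:150612471-150657494) and Ppp1r3d (chr2:178145911-178149177) share 1 without being neighbors. Ppp1r3c (chr19:36806227-36811143, minus strand) has Hectd2os 31.0 kb to one side, with 3 and 10 counts with vehicle, 7 and 3 at 2 h, and 1 and 0 at 12 h, too few to be tested. On its other side, 97.6 kb away, Tnks2 had a log2FC of 0.04 at 2 h and -0.18 at 12 h and was not called (edgeR adjusted p = 0.832 and 0.247). Gbe1 (chr16:70314194-70569961, plus strand) lies 450.2 kb from Speer2, which had 0 counts, and 2349 kb from Robo1, which had a log2FC of 0.04 at 12 h. Pygb lies between Entpd6 and Abhd12 and Gyg between Hltf and Cpa3, of which Cpa3 had 0 counts and the other 3 were not called at 12 h. Ppp1r3f (chrX:7134422-7182507, minus strand) starts 0.136 kb from Ccdc22, with which it shares exon bases, so the division of reads between them is uncertain. Ccdc22 had 1219 to 1963 counts and a log2FC of 0.17 at 12 h (edgeR adjusted p = 0.465), beside 1.13 for Ppp1r3f. Gys1 overlaps Ruvbl2 by 310 exon bases on the opposite strand, which the strand-specific counting separates. Ruvbl2 had a log2FC of 0.84 at 12 h (edgeR adjusted p = 0.0247), a call lost without replicate 1 of vehicle (0.69), without replicate 1 or replicate 2 of 12 h (0.89 and 0.77) and with total counts (0.71). Beside Pygl, which was barely counted, Nin rose by a log2FC of 0.72 at 2 h (edgeR adjusted p = 0.00469) and 1.31 at 12 h (edgeR adjusted p = 0.000152), while Trim9 on its other side had 0 counts. Eri1, 119.8 kb from Ppp1r3b, was not called (log2FC -0.22 at 2 h and -0.04 at 12 h). On the other side, 410.1 kb away, Tnks had a log2FC of 0.51 at 2 h (edgeR adjusted p = 0.0407). That call was lost without any 1 of 5 libraries (0.41 to 0.56), with total counts (0.40) and in a fit of the 2 groups alone (0.50).

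The genes called lower at 12 h were also compared by promoter. RefSeq on GRCm38.p6 gave promoters for 8 of the 9 genes, with no entry for Ppp1r3b. Of the 4 genes lower at 12 h, Ppp1r3c is included although its fall chose the family and its call carries no weight. The 250 bases before the start are printed for these 4 genes. They are chr19:36736605-36736854, minus strand, for Ppp1r3c, chr16:70313699-70313948, plus strand, for Gbe1, chr2:150786546-150786795, plus strand, for Pygb, and chr3:20155117-20155366, minus strand, for Gyg. Searched on both strands were TGANTCA, bound by AP-1, CAGAC, bound by SMAD proteins, GGAATG, bound by TEAD factors, and CACGTG, the E-box. Capitals mark the matches, which do not overlap each other.
Ppp1r3c: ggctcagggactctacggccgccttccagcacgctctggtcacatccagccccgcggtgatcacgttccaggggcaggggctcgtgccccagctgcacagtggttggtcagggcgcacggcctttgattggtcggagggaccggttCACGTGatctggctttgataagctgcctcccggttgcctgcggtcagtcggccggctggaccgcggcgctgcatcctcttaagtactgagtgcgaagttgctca
Gbe1: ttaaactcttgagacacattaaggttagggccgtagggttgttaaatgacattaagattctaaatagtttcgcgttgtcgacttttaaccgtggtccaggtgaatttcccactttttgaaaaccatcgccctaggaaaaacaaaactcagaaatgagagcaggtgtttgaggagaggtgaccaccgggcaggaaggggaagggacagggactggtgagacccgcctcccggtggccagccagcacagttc
Pygb: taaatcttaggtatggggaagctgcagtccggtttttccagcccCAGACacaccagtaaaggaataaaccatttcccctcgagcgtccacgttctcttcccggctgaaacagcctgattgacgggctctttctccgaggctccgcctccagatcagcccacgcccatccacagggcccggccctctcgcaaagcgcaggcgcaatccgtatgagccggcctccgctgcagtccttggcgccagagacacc
Gyg: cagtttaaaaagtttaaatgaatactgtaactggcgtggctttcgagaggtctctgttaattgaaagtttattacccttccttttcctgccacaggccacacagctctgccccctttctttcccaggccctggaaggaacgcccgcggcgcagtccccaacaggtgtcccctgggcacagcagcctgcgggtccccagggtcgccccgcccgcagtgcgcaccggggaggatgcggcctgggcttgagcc
Ppp1r3c held 1 E-box, which begins at base -104 from the start, and Pygb held 1 CAGAC, which begins at base -206. Gbe1 and Gyg held none of the 4 motifs in this window. Among the genes not called lower, Ppp1r3d held 1 E-box at base -226 and 1 CAGAC at base -250. Gys1, Ppp1r3f and Pygl held none, so the matches were not particular to the genes that fell. Of the 32851 promoters in the RefSeq table, 6.02% held CACGTG, 42.2% CAGAC, 12.6% GGAATG and 6.75% TGANTCA in the same 250 bases. The share of G and C was 64.4% for Ppp1r3c, 60.0% for Pygb, 59.6% for Gyg and 48.8% for Gbe1. These matches describe the letters in the window, and binding was not measured here.

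The genes whose pattern over the 6 libraries was most like that of Ppp1r3c were Stc1, Ccl20, Ifit3b, St8sia4 and Trim71. Likeness was the root mean square difference in log2(CPM + 0.25) after centering each gene, and it was 0.59 for Stc1, 0.64 for Ccl20, 0.66 for Ifit3b, 0.75 for St8sia4 and 0.76 for Trim71 on the log2 scale. Stc1 had 71 and 66 counts with vehicle, 14 and 5 at 2 h, and 0 and 1 at 12 h. Ccl20 had 130 and 80 counts with vehicle, 12 and 12 at 2 h, and 0 and 1 at 12 h. Like Ppp1r3c, both genes had few counts at 2 h and were nearly without counts at 12 h, but their vehicle libraries were closer together or in the opposite order of replicates. No test was made of genes picked for likeness.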

How the data were processed

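Libraries were prepared with a stranded total RNA kit and sequenced as 50-base single reads. According to the study's methods, the authors aligned reads to mm9 with subjunc, kept unique alignments, removed duplicates with SAMtools 0.1.19 and counted exon reads by strand with featureCounts. The deposited values are raw counts of 21240 genes in 6 libraries, with no normalization by the authors. Every count column was matched to a sample label.

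Counts were analyzed in R 4.3.3 with edgeR 4.0.16, and alternatives with limma 3.58.1 and DESeq2 1.42.0. Tables were made in Python 3.11.15 with pandas 2.3.3, scipy 1.17.1 and matplotlib 3.10.9. The filter kept 11080 genes that reached 2 CPM in 2 or more libraries. They were fitted with TMM factors in a single quasi-likelihood model of the 3 groups, and Benjamini-Hochberg adjustment was done per contrast. The SE of a log2FC is its size divided by the square root of the F statistic. The fit was tested on simulated counts, and nothing here is read from that test. The limit for a count of 0 is 3 counts in a library, and intervals and limits cover counting error only.

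The 9 genes and all lists were chosen with earlier results of these data known. Of the planned pathway list, 1 gene is not reported here, and the counts and medians leave it out. Genes named are the 9, pathway genes called in a contrast or most abundant in their role, the nearest counted genes, the 5 genes most like Ppp1r3c and the markers. Other pathway genes are named, after their values were seen, to complete a role. Positions were taken from GENCODE on NCBIM37 (mm9), by symbol for 18958 genes and by synonym for 1608, leaving 674 without a position. Alternatives were limma-voom, DESeq2, its size factors in edgeR, total counts, a fit of only the groups compared, a block by replicate number, filters of 10 counts in each library or none, and each library left out.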

Additional observations from a re-analysis of the deposited data

Results flagged for a closer look

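In 3 of the 9 genes, of which 7 were tested, the level differed between 2 h and 12 h of TGFβ1 by edgeR's quasi-likelihood test, a comparison that also spans a longer time without serum and insulin. Of all genes tested, 15.2% were called higher and 18.9% lower. The log2FC of 12 h against 2 h was 0.97 for Ppp1r3f, -1.04 for Gbe1 and -0.59 for Pygb.

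Of the other pathway genes 33 were tested and 10 called, and the level was higher at 12 h than at 2 h for Ppp1r2 (0.74), Pygm (1.41) and Pgm2l1 (0.73). It was lower at 12 h for Slc2a2 (-2.35), Gaa (-1.16), Pgm2 as named in the count table (-1.12), Phka2 (-1.11), Prkab1 (-1.09), Slc37a4 (-0.59) and Hk1 (-0.53). Calls were lost without replicate 1 of 12 h for Ppp1r3f (log2FC 1.08), Pygb (-0.50), Ppp1r2 (0.65), Slc37a4 (-0.45), Pgm2l1 (0.58) and Hk1 (-0.47). Without replicate 2 of 12 h they were lost for Ppp1r3f (0.84), Pygm (1.03), Pgm2l1 (0.85) and Hk1 (-0.60). Leaving out replicate 1 of 2 h ended the call of Ppp1r3f (0.72), and leaving out replicate 2 of 2 h those of Pygm (1.25) and Hk1 (-0.38).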

How the results depend on the processing

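The count of 5 genes of the family called at 12 h against vehicle was 4 to 6 in the fits of all libraries and 3 to 5 with each library left out. The count of 3 at 12 h against 2 h was 3 to 5 and, with a library left out, 1 to 4. The 1 gene called at 2 h, Ppp1r3c, was not tested (0 called) with at least 10 counts in every library, and 0 to 1 genes were called with a library left out, because it passes the filter only through the vehicle libraries. Of the other pathway genes 1 to 4, 12 to 14 and 6 to 11 were called with a library left out at 2 h, at 12 h and between the times, against 3, 14 and 10, and in the other fits 2 to 8, 13 to 16 and 9 to 14. Prkaa2, lower at 2 h, was added there by limma-voom, DESeq2, its size factors, total counts and the filter of 10 counts. A left-out library leaves its group with 1, which is assumed to vary like the others. Gbe1 was called in both 12 h comparisons under all 14 alternatives.

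Values with no call changed sign for Ppp1r3b between 2 h and 12 h without replicate 1 of 2 h (log2FC 0.0938, range with a library left out -0.751 to 0.0938). For Gys1 they did so at 12 h against vehicle without replicate 2 of vehicle (0.0189, range -0.226 to 0.0189) and between the times without replicate 1 of 12 h (0.00422) or replicate 2 of 2 h (0.0517, range -0.0817 to 0.0517). At 2 h against vehicle the sign changed for Ppp1r3f without replicate 2 of 2 h (0.159 to -0.145) and for Gys1 without replicate 2 of vehicle (-0.0884 to 0.0371), and Pygb, at 0.00645, ran from -0.105 with total counts to 0.0529 without replicate 2 of vehicle. The cause was not tested. Over 870 values of single genes under an alternative, 807 kept direction and side of the threshold (or, at 2 h, stayed within 1 SE), 47 lost their call, 6 gained one, 6 at 2 h moved by more and 4 changed sign in a 12 h comparison.

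The labels tie libraries of a replicate number by that number alone. Their deviations from the group means correlated over 11080 genes, with r = 0.71 for vehicle with 2 h, 0.26 for vehicle with 12 h and 0.39 for the TGFβ1 groups. With the replicate block, 1, 6 and 5 of the 9 genes were called at 2 h, at 12 h and between the times, adding Ppp1r3b at 12 h (log2FC -0.83, edgeR adjusted p = 0.0148) and Ppp1r3c (-3.47) and Gyg (-0.42) between the times, and 8, 16 and 14 of the 33 other pathway genes tested, Prkaa2 and Stbd1 among those added at 2 h and between the times. Of all 11080 genes the block called 1813 higher and 1409 lower at 2 h, 3075 and 3052 at 12 h, and 2585 and 2788 between the times.

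Depth limits Ppp1r3c, Ppp1r3d and Pygl, whose counts of 0 to 10 after TGFβ1 leave their levels uncertain.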
